A study of Mus musculus with 2 samples.

Results

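Genes of milk fat and lipid metabolism were followed across the cells of the adult mouse mammary gland. They were 10, Fabp3, Fabp4, Fabp5, Plin2, Fasn, Scd1, Scd2, Cd36, Xdh and Btn1a1, taken by symbol, and 10 of 10 were found once each among the 27998 genes listed for the library, of which 15719 had a count. The study profiled 2 libraries of FVB/NJ mice, an inbred laboratory strain. Both came from untreated adult females, whose cells were pooled before capture, and 8 mice served the whole series. One library held total epithelium (Lin-CD24+ cells) and the other sorted basal cells (Lin-CD29hiCD24+). Lin- means that cells carrying the red cell, endothelial and leukocyte surface proteins TER119, CD31 and CD45 were gated out. Both were made with the 10X Chromium 3′ method, in which every RNA molecule carries a random tag, so that a count is a count of molecules.

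Milk fat is made in the secretory cells of the mammary gland. Fatty acids are built by fatty acid synthase (Fasn) or taken up with the help of the membrane protein CD36, desaturated by stearoyl-CoA desaturases (Scd1, Scd2), carried through the cytosol by fatty acid binding proteins (Fabp3, Fabp4, Fabp5) and stored as triglyceride in droplets coated by perilipin 2 (Plin2). At the apical membrane the droplet is wrapped in plasma membrane and released as a milk fat globule, a step in which butyrophilin (Btn1a1) and xanthine dehydrogenase (Xdh) take part together with perilipin 2. Several of the same proteins serve other cells: FABP4 and CD36 are well known from adipocytes and capillary endothelium, and FABP3 from heart and skeletal muscle. The labels give the mice as adult and untreated and name no pregnancy or lactation.

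The 3302 cells of the total epithelial library were split by counts of marker genes that are not in the set. Cells with 10 or more counts of Krt5, Krt14 and Acta2 together were called basal (1306 cells). Cells with 10 or more counts of Prlr, Stc2 and Gpx3 were called mature luminal, or ML (1133 cells). Other cells with 3 or more counts of the luminal keratins Krt8, Krt18 and Krt19 were called luminal progenitor, or LP (766 cells). The remaining 97 cells met none of the 3 rules. Markers outside these rules followed the names: 9 of 9 basal markers were highest in basal cells, 8 of 8 ML markers in ML cells and 8 of 9 LP markers in LP cells. The 97 remaining cells were mixed, with 8 of 8 fibroblast, 7 of 8 endothelial and 6 of 6 mural markers at their highest there. Levels are given as CPM, the counts of a gene in all cells of a class scaled to a class total of 1000000. The classes held 2776233 counts (basal), 2158548 (LP), 4132895 (ML) and 159975 (no rule met). Brackets give exact Poisson 95% intervals for levels, exact binomial ones for shares of cells and for ratios. There was 1 library per group, so no difference was tested between replicates, and the intervals cover counting error only.

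The 10 genes are protein coding and lie on 7 autosomes in GRCm38, the assembly also called mm10. Fabp5 (chr3:10012548-10016607, plus strand) and Fabp4 (chr3:10204088-10208576, minus strand) lie 187480 bases apart. Scd2 (chr19:44293674-44306864, plus) and Scd1 (chr19:44394455-44407879, minus) lie 87590 bases apart. Plin2 is at chr4:86648386-86670060 (minus), Fabp3 at chr4:130308595-130315463 (plus), Cd36 at chr5:17781690-17888801 (minus), Fasn at chr11:120805846-120824547 (minus), Btn1a1 at chr13:23456992-23465901 (minus) and Xdh at chr17:73883895-73950196 (minus). Neighbouring relatives could share reads. Over the last 500 bases of their annotated transcripts, where 3′ counts fall, Scd1 and Scd2 shared 0 of 1239 and 940 stretches of 31 bases, and Fabp3, Fabp4 and Fabp5 shared 0 with each other. Scd1 shared 39 such stretches, 3.15% of its own, with Scd3, another desaturase of the same locus.

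Promoter sequences of RefSeq (GRCm38.p6) were at hand for Plin2, Fasn, Cd36 and Fabp3. The first 3 are printed because they stand for the 3 patterns described next: high in LP cells, nearly even across the epithelium, and high outside the epithelium. Each is the 250 bases before a start of transcription in RefSeq, 5′ to 3′ on the strand of the gene, at chr4:86670060-86670309, chr11:120824548-120824797 and chr5:17835897-17836146. The Cd36 stretch lies inside the span of the gene given above, which has 6 annotated transcripts. It thus precedes an internal start and not the outermost one.
Plin2: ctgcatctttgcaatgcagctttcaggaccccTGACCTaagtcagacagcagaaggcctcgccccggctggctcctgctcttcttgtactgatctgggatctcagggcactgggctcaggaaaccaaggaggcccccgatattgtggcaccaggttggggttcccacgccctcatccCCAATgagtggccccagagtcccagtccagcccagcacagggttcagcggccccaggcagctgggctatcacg
Fasn: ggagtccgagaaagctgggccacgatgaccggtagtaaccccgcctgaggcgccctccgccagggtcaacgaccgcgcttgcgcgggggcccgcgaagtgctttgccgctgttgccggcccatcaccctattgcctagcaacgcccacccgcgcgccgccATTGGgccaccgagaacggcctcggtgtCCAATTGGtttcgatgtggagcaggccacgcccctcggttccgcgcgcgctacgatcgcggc
Cd36: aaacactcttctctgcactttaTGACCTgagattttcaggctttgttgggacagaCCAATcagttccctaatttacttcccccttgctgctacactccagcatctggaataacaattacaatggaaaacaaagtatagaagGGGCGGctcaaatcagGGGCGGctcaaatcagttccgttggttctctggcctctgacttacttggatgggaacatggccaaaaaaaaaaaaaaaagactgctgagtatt
Capitals mark matches on either strand to AGGTCA (the core that nuclear receptors such as PPARs recognise), CCAAT (the CCAAT box), CACGTG (an E-box), TTCNNNGAA (a STAT site) and GGGCGG (a GC box). Plin2 and Cd36 each held 1 AGGTCA, read on the opposite strand as TGACCT, which 14.0% of the 32851 promoters of this length held. CCAAT was found once in Plin2, once in Cd36 and 3 times in Fasn, of which 2 overlap, and was held by 33.8% of all promoters. Cd36 alone among these 3 held GGGCGG, 2 times in a repeated stretch (32.7% of all promoters). None of the 3 held CACGTG (6.02% of all) or TTCNNNGAA (7.02% of all). A match of letters is a description and does not show that a factor binds.

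The genes of the droplet coat and of globule release were highest in LP cells. Plin2 stood at 107 CPM [94.8–120] in basal cells, 1330 [1281–1379] in LP cells, 242 [227–257] in ML cells and 181 [121–260] in cells meeting no rule. Its LP level was 12.5 times that of basal cells [11.1–14.1] and 5.50 times that of ML cells [5.12–5.92]. The intervals of LP, ML and basal cells did not overlap, and those of ML cells and of cells meeting no rule did.

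Btn1a1, the butyrophilin of the globule membrane, had the widest contrast of the set between LP and basal cells among genes counted in both (Fabp4, with 0 counts in LP cells, gives only a bound, at least 11.9-fold lower there). It stood at 14.8 CPM [10.6–20.03] in basal cells, 479 [450–509] in LP cells and 45.7 [39.4–52.7] in ML cells. LP cells were thus 32.4 times above basal cells [23.7–45.4] and 10.5 times above ML cells [8.95–12.3]. In the 97 cells meeting no rule Btn1a1 had 0 counts, where 3 counts would be 18.8 CPM, so the LP level was at least 25.5-fold higher.

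Xdh, an enzyme of purine breakdown that in the mammary gland also binds butyrophilin at the droplet surface, was also highest in LP cells. It gave 8.29 CPM [5.25–12.4] in basal cells from 23 counts, 68.6 [58.0–80.5] in LP cells from 148 counts and 6.78 [4.50–9.79] in ML cells from 28 counts. The LP level was 10.1 times that of ML cells [6.72–15.8] and 8.28 times that of basal cells [5.31–13.5], and basal and ML cells overlapped. The cells meeting no rule held 2 counts, 12.5 CPM [1.51–45.2], below the LP interval and overlapping those of basal and ML cells.

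**Figure D1:**
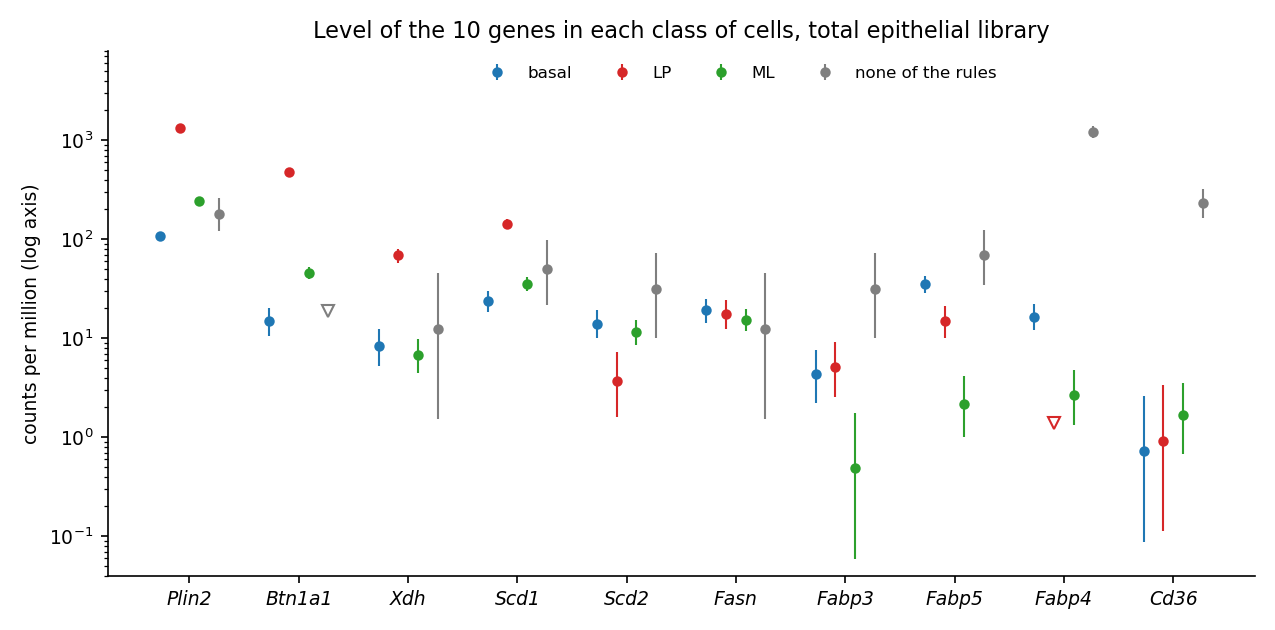
Level of each of the 10 genes in CPM (log axis) in basal, LP, ML and remaining cells of the total epithelial library. Points are levels with exact Poisson 95% intervals, and open triangles mark classes with 0 counts at the level of 3 counts; Plin2, Btn1a1, Xdh and Scd1 are highest in LP cells, whereas Fabp4 and Cd36 are highest in the 97 cells meeting none of the rules.

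Within LP cells these genes were unevenly spread. Plin2 had a count in 567 of 766 LP cells, 74.0% [70.8–77.1], with a median of 2 and up to 36 counts in a cell. Btn1a1 had a count in 369, 48.2% [44.6–51.8], and up to 17 in a cell. Xdh was seen in 111 LP cells, 14.5% [12.1–17.2], in 87 of them as a single count.

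LP cells were deeper (median 2483.5 counts a cell) than basal cells (1838.5) but shallower than ML cells (3403), and a deeper cell shows more genes. With each cell thinned to 800 counts, just below the lowest cell at 802, Plin2 was found in 49.5% of LP, 12.3% of ML and 5.74% of basal cells. Btn1a1 was found in 21.4%, 1.85% and 0.230% of them. Xdh was found in 4.96%, 0.265% and 0.383%. The LP share stayed the highest for all 3 genes.

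**Figure D2:**
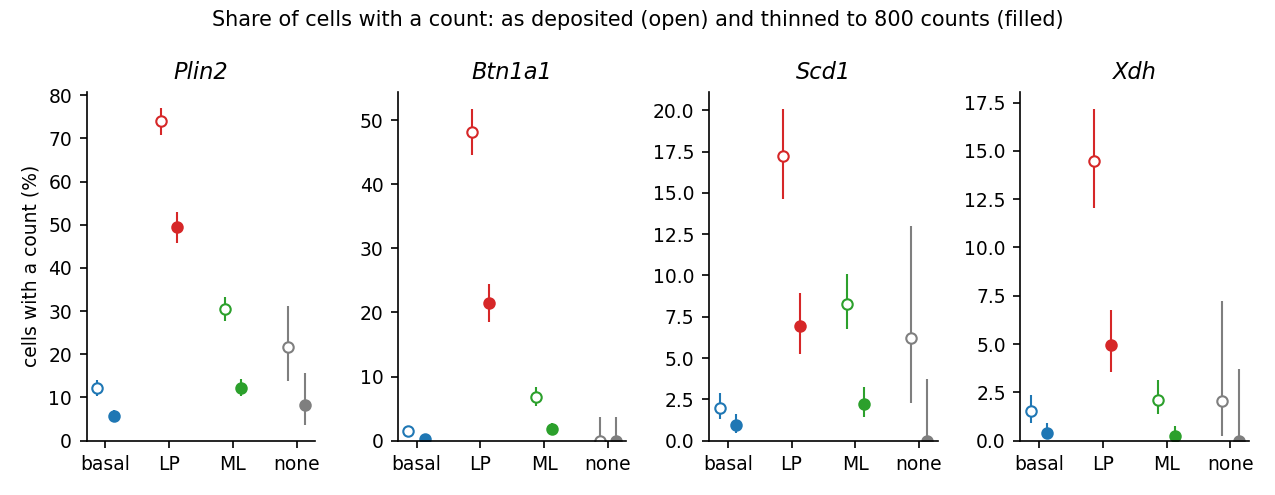
Percent of cells with a count of Plin2, Btn1a1, Scd1 and Xdh in each class, at the deposited depth (open circles) and with every cell thinned to 800 counts (filled circles), with exact binomial 95% intervals. Thinning lowers every share, and the LP share remains the highest in each panel (74.0% to 49.5% for Plin2).

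The CPM of these genes also differed with the depth of the LP cell. LP cells were put into 4 groups by their total count. In the 192 shallowest cells (median 1261.5 counts) Btn1a1 stood at 195 CPM [143–260], and in the 192 deepest (median 4684.5) at 557 [511–607]. Plin2 stood at 1064 [937–1202] and 1445 [1370–1523] in the same cells. Xdh stood at 24.9 [9.15–54.3] and 82.3 [65.2–103]. The intervals of the shallowest and the deepest cells did not overlap for any of the 3 genes. The class rule counts molecules, so the class given to a cell also depends on its depth. With the rule applied to cells thinned to 800 counts, LP cells went from 766 to 1297 and ML cells from 1133 to 620. Whether the shallowest LP cells include ML cells that fell short of the ML rule was not tested. What sets the depth of a cell was not tested either, and a smaller cell and a poorer capture cannot be told apart here.

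Plin2 and Btn1a1 tended to be found in the same LP cells. Among thinned LP cells with a Btn1a1 count, 63.4% of 164 [55.6–70.8] also had Plin2, beside 45.7% of the 602 without [41.7–49.8]. The LP marker and milk protein gene Csn3 was found in 90.2% [84.6–94.3] and 67.1% [63.2–70.9] of the same cells. For Scd1 the shares were 7.93% and 6.65%, and for Xdh 7.32% and 4.32%, with intervals that overlapped. Over all 3302 cells, Pearson's r of the log level was 0.542 between Plin2 and Btn1a1, and 0.335 within the 766 LP cells. Cells of 1 library share their free RNA and differ in depth, so these values are descriptions. Of the 45 pairs of the 10 genes, 2 reached an r of 0.3 over all cells, this one and Fabp4 with Cd36.

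In droplet libraries RNA from broken cells enters the droplets of others. A low level in basal or ML cells was therefore set beside that of LP markers, whose range is no measure of free RNA alone. The 9 LP markers (Kit, Elf5, Aldh1a3, Cd14, Csn3, Wfdc18, Trf, Muc15 and Ehf) reached 1.02% to 5.86% of their LP level in basal cells and 8.28% to 18.8% in ML cells. Btn1a1 fell inside both ranges, with 3.09% [2.20–4.22] in basal and 9.56% [8.14–11.2] in ML cells. Its level in basal cells is thus not told apart from that of these markers. The paper reports a few sorted basal cells that also express luminal genes, with Kit, Ehf and Csn3 among them. Here the 693 basal counts of Csn3 were in 68 of 1306 cells, with up to 141 in a cell. In ML cells 148 of the 189 counts of Btn1a1 were in 117 cells described next, as were 2031 of 2559 of Csn3. Those cells were picked by Kit, Elf5, Aldh1a3 and Cd14, which are among the markers. The marker range thus does not settle what the level of Btn1a1 is in either class, and the part of free RNA was not tested. Plin2 was above the marker range in basal cells, with 8.02% [7.09–9.04], and inside it in ML cells with 18.2% [16.9–19.5]. Xdh was above it in basal cells, with 12.1% [7.43–18.8], and inside it in ML cells with 9.88% [6.35–14.9]. Scd1 was above it in both, with 16.8% [12.7–22.0] and 25.0% [20.4–30.6]. The top of the range in ML cells was set by Ehf alone. Plin2 lay above the other markers there, of which Kit was highest at 14.6% [9.43–22.1]. The same 117 cells held 549 of the 999 ML counts of Plin2, 20 of 28 of Xdh and 68 of 146 of Scd1.

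**Figure D3:**
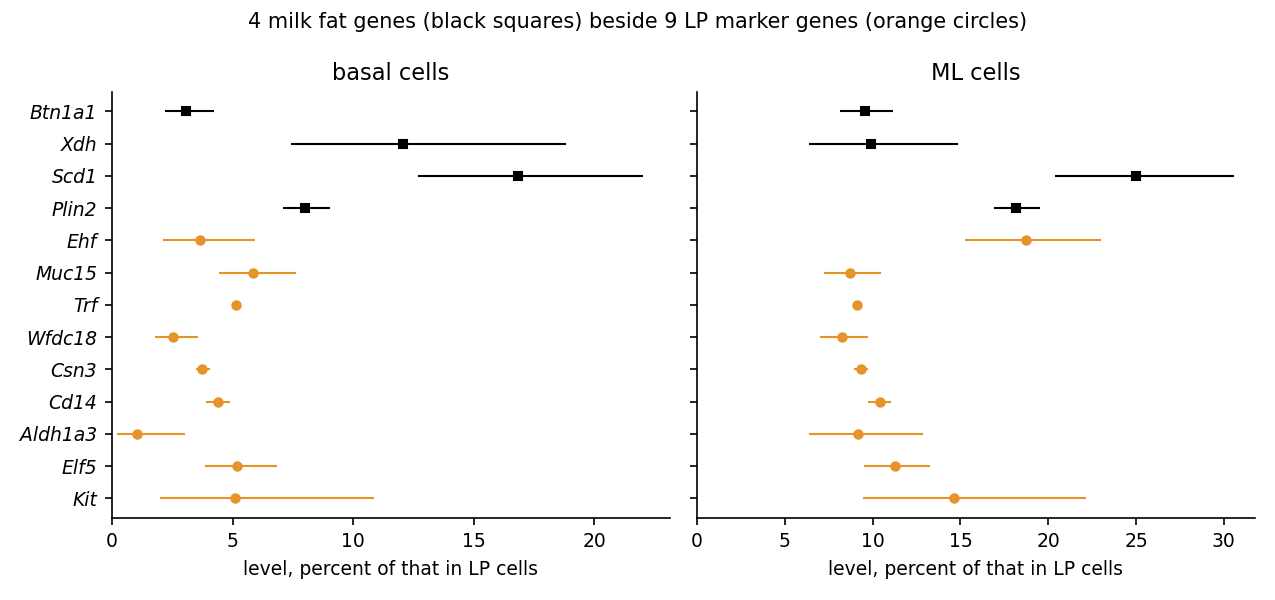
Level in basal cells (left) and ML cells (right) as a percent of the level in LP cells, for Btn1a1, Xdh, Scd1 and Plin2 (black squares) and 9 LP marker genes (orange circles), with exact 95% intervals. Btn1a1 lies among the markers in both panels, and Scd1 lies above them in both (16.8% and 25.0%).

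The Plin2 and Btn1a1 counts of ML cells were concentrated in a minority of cells that also carried LP genes. Of the 1133 ML cells, 117 had 3 or more counts of Kit, Elf5, Aldh1a3 and Cd14 together. In those 117 cells Btn1a1 stood at 223 CPM [189–262] and in the other 1016 at 11.8 [8.48–16.0], a ratio of 18.9 [13.3–27.4]. Plin2 stood at 827 CPM [760–900] and 130 [118–142], a ratio of 6.38 [5.62–7.24]. The other genes that were high in LP cells followed. Xdh stood at 30.1 [18.4–46.5] and 2.31 [0.996–4.54], and Scd1 at 103 [79.6–130] and 22.5 [17.8–28.1]. Fasn did not follow, with a ratio of 0.986 [0.447–1.96].

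The 117 cells reached 46.6% of the LP level of Btn1a1 [39.0–55.4] and 62.2% of that of Plin2 [56.7–68.2]. They were also deeper, with a median of 5609 counts against 3239 in the other ML cells. No doublet caller was run, and droplets that caught 2 cells cannot be told apart here from single cells with both sets of genes. Without the 117 cells, a choice made after seeing the data, ML and basal cells no longer differed by 2-fold in either gene. The log2 ratio of ML to basal cells went from 1.63 to -0.32 for Btn1a1 and from 1.18 to 0.28 for Plin2.

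**Figure D4:**
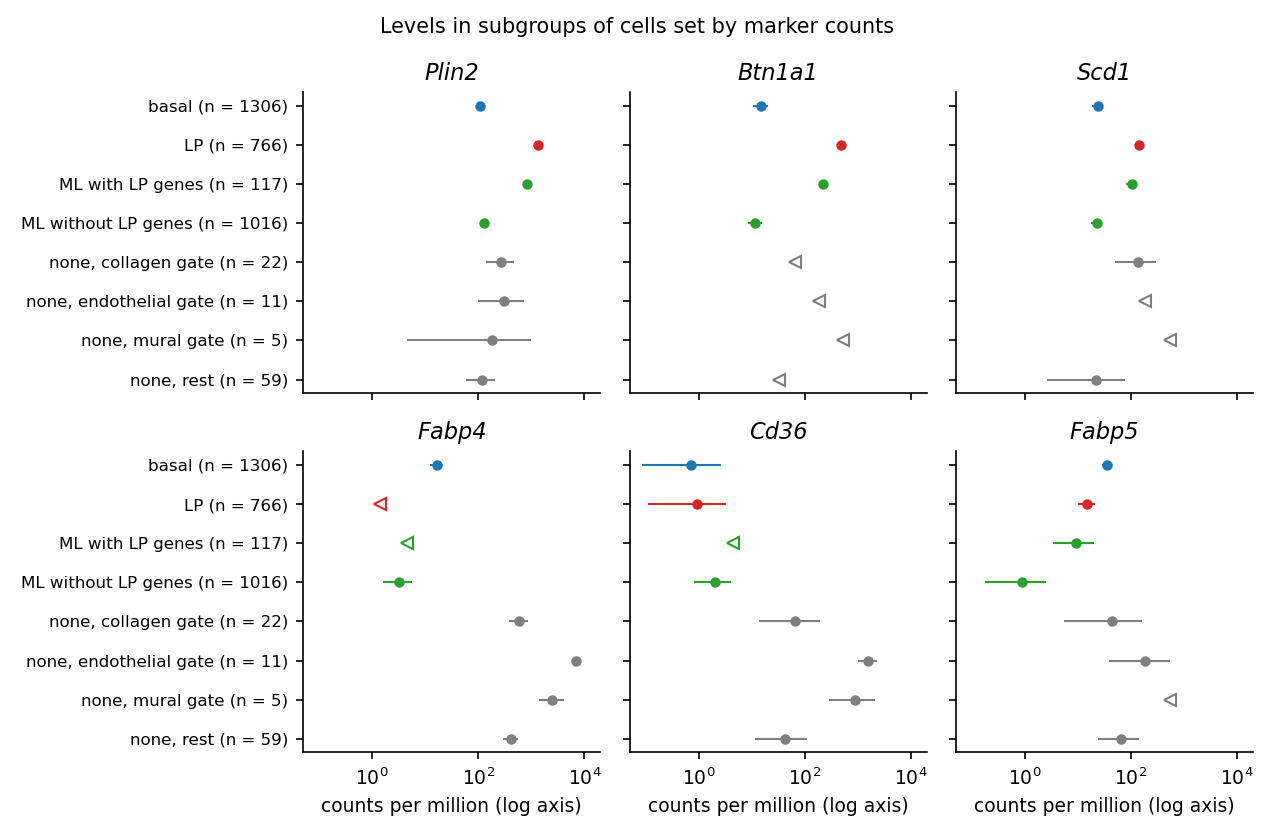
Level in CPM (log axis) of 6 of the genes in basal and LP cells, in ML cells with and without LP genes, and in cells meeting no rule divided by collagen, endothelial and mural marker counts. Points carry exact Poisson 95% intervals and open triangles mark 0 counts at the level of 3 counts; Plin2 and Btn1a1 are high in LP cells and in the 117 ML cells with LP genes, and Fabp4 and Cd36 in the 11 endothelial-gated cells.

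Of the fatty acid synthesis and desaturation genes of the set, the desaturase Scd1 shared the LP pattern, and Scd2 and Fasn did not. Scd1 stood at 23.8 CPM [18.4–30.3] in basal cells, 141 [126–158] in LP cells, 35.3 [29.8–41.5] in ML cells and 50.01 [21.6–98.5] in cells meeting no rule. The LP level was 5.94 times that of basal cells [4.54–7.88] and 4.0 times that of ML cells [3.27–4.91]. It had a count in 17.2% of LP cells [14.6–20.1], and 17 of them held 5 or more. One basal cell held 21 of the 66 basal counts, and without it, a choice made after seeing the data, the basal level was 16.3 CPM [11.9–21.7] and the LP level 8.70 times higher [6.34–12.2].

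Scd2, the second desaturase, ran the other way. It gave 8 counts in LP cells, 3.71 CPM [1.60–7.30], against 14.0 [9.99–19.2] in basal and 11.6 [8.56–15.4] in ML cells. The LP level was lower than that of basal cells by 3.79 times [1.75–9.39] and than that of ML cells by 3.13 times [1.47–7.67], and basal and ML cells overlapped. One basal cell held 14 of the 39 basal counts. Without it, a choice made after seeing the data, the basal level was 9.02 CPM [5.83–13.3], whose interval overlapped that of LP cells, and the LP level was lower by 2.43 times [1.06–6.24]. In the cells meeting no rule 5 counts gave 31.3 CPM [10.2–72.9], of which 4 were in the 22 cells gated for collagen genes. With the collagen-gated cells left out, a choice made after seeing the data, the log2 ratio of these cells to the highest epithelial class went from 1.15 to -0.69.

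Fasn, the enzyme that builds palmitate, was nearly even. It stood at 19.1 CPM [14.3–25.0] in basal cells, 17.6 [12.5–24.2] in LP cells and 15.2 [11.7–19.5] in ML cells. The ratio of LP to ML cells was 1.16 [0.751–1.75] and that of LP to basal cells 0.922 [0.592–1.43], so these 156 counts leave room for a difference of somewhat under 2-fold either way. No cell held more than 2 counts.

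Among the fatty acid binding proteins, Fabp5 was highest in basal cells within the epithelium. It stood at 34.9 CPM [28.3–42.6] in basal cells, 14.8 [10.1–20.9] in LP cells and 2.18 [0.996–4.13] in ML cells. These intervals did not overlap, with LP cells 6.81 times above ML cells [3.18–16.2] and basal cells 2.36 times above LP cells [1.57–3.63]. Fabp5 was seen in 5.67% of basal cells, mostly as a single count (60 of 74 cells). In the cells meeting no rule 11 counts gave 68.8 CPM [34.3–123], which overlapped the basal interval.

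Fabp3, the muscle-type protein that is also made by lactating mammary cells, was rarely counted. Its 30 counts in the library gave 4.32 CPM [2.23–7.55] in basal, 5.10 [2.54–9.12] in LP, 0.484 [0.0586–1.75] in ML cells and 31.3 [10.2–72.9] in cells meeting no rule. Of the 30 counts, 7 were in 10 cells with 10 or more counts of the skeletal muscle genes Acta1, Ckm and Mylpf, a gate chosen after seeing the data. Of these cells 7 met no rule and 2 were classed as LP. The 7 held 4 of the 5 counts of Fabp3 among cells meeting no rule.

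Fabp4 and Cd36 had most of their counts in cells outside the epithelial classes. Fabp4 had 193 of its 250 counts in the 97 cells meeting no rule, at 1206 CPM [1042–1389], with a count in 24 of them and up to 21 in a cell. Basal cells had 46 counts at 16.6 CPM [12.1–22.1], and ML cells 11 at 2.66 [1.33–4.76]. In 0 of the 766 LP cells was Fabp4 found, for which the exact interval allows a share of up to 0.480% (3 cells of 766 would be 0.392%). This is a limit on cells with a count at this depth and not on cells expressing the gene. The level of the cells meeting no rule was 72.8 times that of basal cells [52.6–103].

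Cd36 had 37 of its 48 counts in the same 97 cells, at 231 CPM [163–319], in 15 cells. Basal and LP cells had 2 counts each and ML cells 7, with each level under 2 CPM. The level of the cells meeting no rule was 137 times that of ML cells [60.1–363]. Across the 3302 cells r was 0.587 between Fabp4 and Cd36.

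Within those 97 cells both genes were highest where endothelial markers were found. In these, 11 cells had 3 or more counts of Pecam1, Cdh5, Cldn5 and Emcn, where Fabp4 stood at 7079 CPM [5845–8497], with a count in 9 of 11. Cd36 stood at 1539 CPM [996–2272] in them, with a count in 8. Fabp4 was lower in each of the other groups, whereas for Cd36 the mural interval overlapped the endothelial one. In the 5 cells with mural (pericyte) markers the levels were 2501 [1367–4196] and 893 [290.0–2084], and in the 22 collagen-gated cells 581 [379–851] and 67.0 [13.8–196]. The other 59 cells gave 407 [288–559] and 42.9 [11.7–110]. The gates were read in order, collagen, endothelial and then mural. The mural gene Rgs5 had 17 counts in the endothelial-gated cells and 17 in the mural-gated ones, so these groups are not cleanly apart.

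Of the adipocyte markers, Adipoq, Plin1, Cidec, Lep, Retn, Cfd and Pck1 had 0 counts in the 97 cells. In ML cells Adipoq had 6 counts, all in 1 cell, and Cfd had 75, of which 74 were in 1 cell. The eighth marker, Car3, which muscle also makes, had 846 counts in the 97 cells. The 8 endothelial markers summed to 988 CPM in these cells and to 9.27 to 35.3 CPM in the epithelial classes, and their part in the levels of Fabp4 and Cd36 was not tested. Endothelial-gated cells were found although the sort was gated against CD31, the product of Pecam1. Of all Fabp4 counts in the library, 58.0% were in cells passing the collagen or endothelial gate in any class, and of all Cd36 counts 64.6%. The 46 basal counts of Fabp4 were in 17 cells, none of which passed either gate, with at most 5 in a cell. Of the 11 ML counts 4 were in gated cells.

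The set was then counted beside all genes. Genes with at least 50 counts in the library were considered, which 8 of the 10 met, Fabp3 (30 counts) and Cd36 (48) being below. Of these 8, 5 were higher in LP than in ML cells by 2-fold or more (Fabp5, Plin2, Scd1, Xdh and Btn1a1), as were 10.6% of all 9019 genes. Scd2 alone was lower, as were 16.5% of all genes, and its fold was lost with other splits of the cells: the log2 ratio went from -1.65 to -0.99 with thresholds of 20, 20 and 6 and to -0.66 with the rule applied to thinned cells. The median log2 ratio of LP to ML cells was 2.23 over the 8 and -0.27 over all genes. Without the 117 ML cells with LP genes the same 5 genes were higher, beside 11.9% of all genes. Those cells stood above the other ML cells for all 5, so leaving them out could only raise these ratios.

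Against basal cells, 4 of the 8 were higher in LP cells (Plin2, Scd1, Xdh and Btn1a1; 12.0% of all genes) and 3 lower (Fabp4, Fabp5 and Scd2; 19.7%). Between ML and basal cells, 2 were higher in ML cells (Plin2 and Btn1a1; 18.1% of all genes) and 2 lower (Fabp4 and Fabp5; 18.0%), counts that are no result about the set beside these shares. In the cells meeting no rule, 2 were at least 2-fold above the highest epithelial class (Fabp4 and Scd2; 8.87% of all genes). Scd2 rests on 5 counts there. The members were chosen for their function and share cells, so these counts describe this library.

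Genes outside the set with the most similar pattern over the 3302 cells were LP genes for the droplet and globule genes. For Btn1a1 they were Csn3 (r = 0.665), Lalba (0.654) and Trf (0.603), for Plin2 Csn3 (0.657), Trf (0.642) and Plet1 (0.612), and for Xdh Lalba (0.358) and Csn3 (0.317). Csn3 and Lalba encode the milk proteins kappa-casein and alpha-lactalbumin, and Trf the iron carrier transferrin. For Fabp4 they were Sparcl1 (0.646), Esam (0.590) and Sncg (0.469), and for Cd36 Esam (0.444), Egfl7 (0.440) and Pecam1 (0.408), of which Esam, Egfl7 and Pecam1 are endothelial genes. For Scd1, Scd2, Fasn, Fabp3 and Fabp5 no gene reached 0.3 among the 9712 genes seen in at least 33 cells.

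The sorted basal library, of 4771 shallower cells (median 487 counts), is set beside the basal cells of the total library without a test. All cells of the sorted library were used, whereas the basal cells of the total library were picked by the class rule. The 2 sides thus differ in how cells were chosen. For 6 of the 10 genes the intervals overlapped, among them Plin2 with 90.8 CPM [79.4–104] against 107 and Btn1a1 with 22.5 [17.0–29.2] against 14.8. The sorted library was higher for the other 4. Of the 8 genes with 50 counts or more 3 were higher with intervals apart and 0 lower, beside 36.1% and 22.8% of all 9130 genes, so the count is no result about the set. Fabp4 stood at 32.2 CPM [25.5–40.0] against 16.6 and Cd36 at 10.0 [6.50–14.8] against 0.720 [0.0872–2.60]. Fasn stood at 41.4 [33.8–50.2] against 19.1 and Xdh at 22.9 [17.4–29.7] against 8.29. In the sorted library 49 cells passed the collagen gate and 6 the endothelial gate. The latter held 23 of the 80 Fabp4 counts and 3 of the 25 Cd36 counts. The 2 libraries shared 28 cell barcodes.

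Some other genes of the milk fat globule membrane shared the LP pattern of Btn1a1. Of 10 listed genes 7 had 50 counts or more, and 4 of them were higher in LP than in ML cells by 2-fold or more, with 1 lower (the tetraspanin Cd9), beside 10.6% and 16.5% of all genes. Rab18 and Anxa5 had ratios of LP to ML of 0.759 and 0.846, and Cd9 was 2.43 times higher in ML cells. Muc15 is also among the LP markers above. The mucins Muc1 and Muc15 stood 11.2 times [7.98–16.2] and 11.5 times [9.53–13.9] higher, and Mfge8, lactadherin, 8.90 times [8.55–9.26], from 6361 CPM in LP and 715 in ML cells. Cidea, a droplet fusion protein that is induced in lactation, stood at 39.4 CPM in LP and 4.11 in ML cells, 9.57 times higher [5.64–17.2]. The median log2 ratio of the list was 3.15.

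In the list of fatty acid synthesis and desaturation 4 of 11 genes were higher in LP cells than in ML cells and 0 lower, beside 10.6% and 16.5% of all genes. They were the desaturases Fads1 (7.87 times [5.13–12.5]) and Fads2 (9.79 times [4.73–22.7]), the acetyl-CoA carboxylase Acaca (3.96 times [2.07–7.89]) and malic enzyme Me1 (2.07 times [1.71–2.50]). LP cells also stood above basal cells for Fads2 (3.48 times [1.96–6.48]) and Me1 (10.0 times [6.84–15.2]). For Fads1 and Acaca the ratios of LP to basal were 1.18 [0.904–1.54] and 1.08 [0.647–1.79]. Of 12 regulators 4 were higher and 1 lower, beside the same shares of all genes, with Cebpb at 6.50 times [5.04–8.46] and the sterol-responsive regulator Insig1 at 4.74 times [2.73–8.55]. For Cebpb and Insig1 the ratios of LP to basal were 1.18 [0.996–1.40] and 0.737 [0.504–1.07]. Insig1 stood at 62.5 CPM in the cells meeting no rule, 29.5 in basal and 21.8 in LP cells. The lists' median log2 ratios of LP to ML were 0.22 and 0.09, beside -0.27 over all genes.

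Of 11 droplet and lipolysis genes 4 were higher in LP cells and 1 lower, beside 10.6% and 16.5% of all genes. Besides Cidea they were the lipase inhibitors Hilpda (3.73 times [3.27–4.25]) and G0s2 (7.90 times [3.58–19.8]) and the monoglyceride lipase Mgll (7.06 times [5.16–9.82]). LP cells stood above basal cells for Cidea (36.4 times [12.1–180]) and Hilpda (5.03 times [4.26–5.98]). For G0s2 and Mgll the ratios of LP to basal were 1.25 [0.749–2.08] and 0.999 [0.821–1.21]. G0s2 and Mgll were highest in the cells meeting no rule, at 75.0 and 212.5 CPM. Of 13 genes of uptake and binding 3 were higher and 2 lower, the latter at the share of all genes (16.5%) and the former beside 10.6%. The acyl-CoA synthetase Acsl1 stood 8.48 times higher [5.24–14.3] and Acsl5 2.60 times lower [2.11–3.21]. Lipoprotein lipase (Lpl), which frees fatty acids from plasma lipid in capillaries, was highest in the cells meeting no rule, at 181 CPM against 11.1 in LP cells, 16.3 times higher [9.17–29.3].

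In triglyceride synthesis 2 of 8 genes were higher in LP cells and 3 lower, beside 10.6% and 16.5% of all genes, and the median log2 ratio was -0.75, beside -0.27 over all genes. The lipin Lpin1 stood 4.96 times higher in LP cells [3.71–6.69] and Lpin2 lower by 4.39 times [2.56–8.07]. Dgat2, which makes the last step to triglyceride, stood at 175 CPM in ML cells and 22.2 in LP cells, 7.89 times higher in ML cells [5.89–10.8], whereas its counterpart Dgat1 had a ratio of LP to ML of 1.48 [1.04–2.09].

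**Figure D5:**
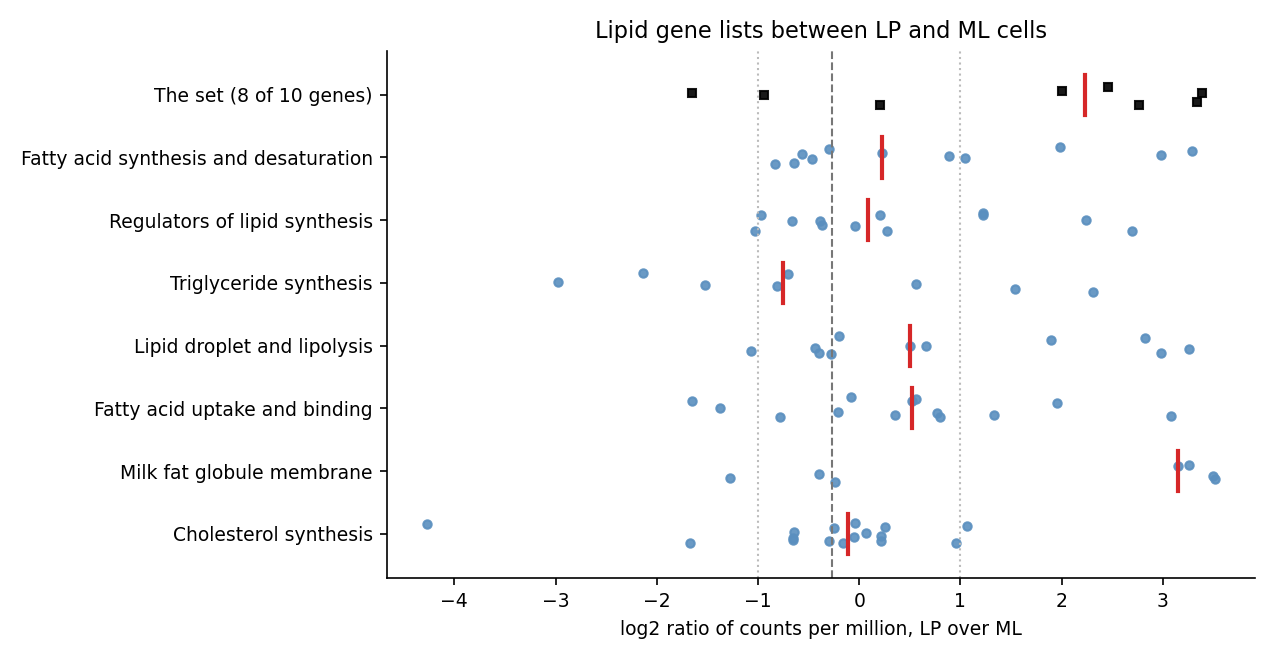
Log2 ratio of CPM in LP over ML cells for each gene with 50 or more counts, in the set (black squares, 8 of 10 genes) and in 7 lists of lipid genes (blue circles). Red bars are medians, the dashed line is the median of all genes (-0.27) and dotted lines mark a 2-fold difference; the milk fat globule membrane list has its median at 3.15 and triglyceride synthesis at -0.75.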

How the data were processed

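Single cells of 2 libraries were counted with the 10X Chromium 3′ method. Reads were turned by the authors into counts with Cell Ranger (version 1.2.1 and build mm10 in the submitters' processing notes; the methods name another version). The deposited values are whole-number counts of molecules per gene and cell, without normalization. Choice of cell barcodes and collapsing of reads were done there and cannot be repeated from the counts. Counting leaves out reads shared by near-identical genes. The threshold of their filter on shallow cells is not given in the sources used here.

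All deposited cells were used: 3302 with 9227651 counts (802 to 12967 per cell, median 2425.5) and 4771 with 2488704 counts (137 to 1946, median 487). At these depths 3 counts are 1.08 CPM in basal, 1.39 in LP, 0.726 in ML and 18.8 in the remaining cells. Cells were split by the rule in the text, read in order, so that the 26 cells meeting both the basal and the ML rule were basal. Thinning drew 800 counts per cell without replacement. No doublets were removed. Ratios were formed over all genes, a class with 0 counts being set to 3 counts, and no p-value was computed. Correlations used ln(1 + counts per 10000). The members and lists were chosen with earlier results of these data known. Named genes are the 10 members and, per list, up to 4 genes with the largest LP to ML ratio and up to 2 with the largest ratio of remaining cells to the epithelium. Positions are from GENCODE by Ensembl ID (10 of 10 matched) and promoters from RefSeq. The ratio and thinning steps were tested on simulated data. Alternatives were other thresholds, thinning before the split, other totals, other minimum counts and folds, and leaving out gated cells or the richest cell of a gene. Python 3.11.15, numpy 2.4.6, scipy 1.17.1 and pandas 2.3.3 were used. The values of 1 listed gene are not reported here.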

Additional observations from a re-analysis of the deposited data

How the results depend on the processing

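The cells were re-split with other thresholds, levels recomputed on other totals, and cells left out, one choice at a time. Of 28 log2 ratios of 2-fold or more, 326 of 328 recomputed values kept their direction and 313 kept the fold. The 2 reversals were Btn1a1 between ML and basal cells without the ML cells carrying LP genes (-0.32) and Scd2 in cells meeting no rule without collagen-gated cells (-0.69); both settings, like those without endothelial- or muscle-gated cells or without the richest cell of a gene, were chosen after seeing the data. The 4 genes higher in LP than in basal cells stayed 4 under all 15 alternatives. The share of all genes ran from 7.47% (3-fold) to 19.2% (1.5-fold). The number higher in LP than in ML cells lay between 4 and 6, beside 6.66% (3-fold) to 16.4% (1.5-fold) of all genes. With thresholds of 20, 20 and 6 the 1 gene lower in LP than in ML cells was Fabp4 and no longer Scd2 (-0.99), beside 9.57% of all genes. The number lower was 2 with thresholds of 5, 5 and 2 (19.9% of all genes), with a 1.5-fold limit (32.5%) and without ML cells with LP genes (17.9%). It was 0 with the rule applied to thinned cells (4.1%) and with at least 200 counts (14.0%). At 200 counts 5 members remained, and the numbers lower in LP and in ML than in basal cells were 1 and 1. All genes stood at 15.4% and 14.4% there, so these 2 counts are no result about the set. The number higher in ML than in basal cells was 1 at 3-fold (9.74% of all genes) and 0 without the ML cells with LP genes (18.2%). In cells meeting no rule the number was 1 with thresholds of 20, 20 and 6 (4.38% of all genes), with at least 200 counts (3.55%) and at 3-fold (3.57%). It was 4 with at least 10 counts (Fabp3, Fabp4, Scd2 and Cd36), where 25.5% of all genes passed. No paired analysis was possible because each group is 1 library. Depth limits Fabp3, Scd2 and Cd36 most, which rest on 30, 100 and 48 counts.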

Other observations

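Cholesterol synthesis, which shares its regulators with fatty acid synthesis, did not follow the milk fat genes. Of 19 listed genes 16 had 50 counts or more. The median log2 ratio of LP to ML cells was -0.11, beside 0.22 in the list of fatty acid synthesis and desaturation and -0.27 over all genes. Acat2 stood 2.09 times higher in LP cells [1.57–2.79]. Fdft1, squalene synthase, stood at 19.5 CPM in LP and 62.2 in ML cells. Cyp51, a sterol demethylase, stood at 51.5 CPM in basal cells, 28.7 in LP cells and 14.8 in ML cells.

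Nr1h3, a sterol-sensing nuclear receptor, was highest in the 97 cells meeting no rule, at 87.5 CPM from 14 counts against 8.80 in LP cells, 9.94 times higher [4.61–20.9].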
